A study of Cavia porcellus with 9 samples.

Results

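Txnip and the 5 arrestin domain-containing genes Arrdc1 to Arrdc5 form the alpha-arrestin family, and all 6 were found by symbol among the 19962 genes of a retinal count table from the guinea pig, Cavia porcellus. The family was picked on 2 measured values, a higher level of Txnip under blue than under white light and a higher level of Arrdc3 under green than under white light. Those values are therefore given as a description, with no test. The retinas came from male tri-color animals of the Dunkin-Hartley strain, received at 2 weeks of age, kept on a 12-hour light and 12-hour dark cycle under green, blue or white light for 8 weeks, and aged 12 weeks at sampling per the labels. Each light had 3 RNA-seq libraries, which carry 2 animal labels: 11 (libraries 1 and 2) and 16 in green, 2R-23 and 32 (libraries 2 and 3) in blue, and 6 (libraries 1 and 2) and R-23 in white. White light was the control, no genetic change is named in any group, and 2R-23 and R-23 were taken as different animals although the labels do not say so. The p-values thus measure a spread that partly lies between libraries of 1 animal. Green library 1 and white library 3 have titles ending in "-B", a suffix that the labels do not explain. Green libraries 1 and 2 are both titled as the right eye of animal 11, and the labels do not say whether they repeat 1 eye. Folds within animal 11 and between the white animals therefore cannot be told apart from a difference that goes with the suffix.

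Alpha-arrestins share the arrestin fold with the visual arrestin and the beta-arrestins, and most carry short proline-tyrosine motifs that bind ubiquitin ligases of the NEDD4 family and so bring these to membrane proteins that are to be internalised. Txnip, the thioredoxin-interacting protein, binds reduced thioredoxin and restrains glucose uptake by promoting endocytosis of the transporter encoded by Slc2a1. Transcription of Txnip and Arrdc4 is driven by glucose through MondoA (Mlxip) or ChREBP (Mlxipl) with their partner Mlx, and in rodent models of diabetes Txnip is raised in the retina. Arrdc3 has been tied in mice and human cells to the trafficking of beta-adrenergic receptors and the turnover of the integrin encoded by Itgb4, and Arrdc1 to the release of vesicles from the plasma membrane together with Tsg101.

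Libraries held 62155041 to 74979806 counts. Gnat1, which encodes the rod transducin, ranged from 10000 to 12900 CPM (counts per 1000000 counts, with library totals scaled by TMM factors), and all 11 retina markers in the table were detected in all 9 libraries. The 11 summed to 61500 to 78700 CPM in green, 72900 to 80400 CPM in blue and 72300 to 80000 CPM in white. The lowest sum was that of green library 1. The summed lens markers (14 genes, 9 of them detected in every library and none at 0 in all) ranged from 79.9 to 100 CPM in green, 52.4 to 93.1 CPM in blue and 30.6 to 75.1 CPM in white, and the summed vascular markers (14 genes, again 9 of them in every library) from 422 to 435, 400 to 531 and 503 to 572 CPM. The 13 pigment epithelium markers summed to 269 to 765 CPM in green, 553 to 756 CPM in blue and 336 to 790 CPM in white. A fit with a covariate for pigment epithelium genes is given with the alternatives at the end. The part of lens and vascular cells in the levels below was not tested. In a bulk retina, fewer cells of a type and less RNA per cell cannot be told apart.

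Txnip had 27.4, 33.7 and 20.8 CPM in green libraries 1 to 3, 28.7, 33.3 and 32.5 CPM in the blue libraries, and 14.1, 14.3 and 20.9 CPM in the white libraries. The blue libraries all lay above the white ones, whereas the lowest green library, of animal 16, stood level with the highest white one, of animal R-23. Group means ran from blue at 31.5 ± 2.43 CPM over green at 27.3 ± 6.42 CPM to white at 16.4 ± 3.84 CPM (SD, n = 3 each). Neighbours in that order overlapped: blue with green, and green with white. The blue-minus-white log2 difference, on which the gene was chosen, was 0.94 ± 0.19 (SE), a 1.91-fold higher level.

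Under green light the log2 difference of Txnip from white was 0.73 ± 0.19, a 1.66-fold higher level that did not pass over all genes (edgeR adjusted p = 0.764; unadjusted p = 0.00247, rank 50 of 15469; DESeq2 adjusted p = 0.063). This comparison uses the same white libraries as the value that chose the gene, so it is not an independent one. Green and blue differed by -0.21 ± 0.19 on the log2 scale (edgeR adjusted p = 0.828), a difference that was -0.039 without green library 3 and -0.383 without green library 2. The blue libraries are those on which Txnip was chosen, so this comparison is not independent either. Libraries of 1 animal lay close to each other for Txnip, 1.23-fold apart for animal 11 in green, 1.03-fold for animal 32 in blue and 1.01-fold for animal 6 in white. The other animal of the group lay 1.46-fold away in green, 1.14-fold in blue and 1.47-fold in white. The green fold within animal 11 and the white fold between animals each set a "-B" library against libraries without the suffix. Summed by animal label, Txnip stood at 30.1 and 20.9 CPM in green animals 11 and 16, at 28.6 and 33.1 CPM in blue animals 2R-23 and 32, and at 14.3 and 20.8 CPM in white animals 6 and R-23.

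**Figure D1:**
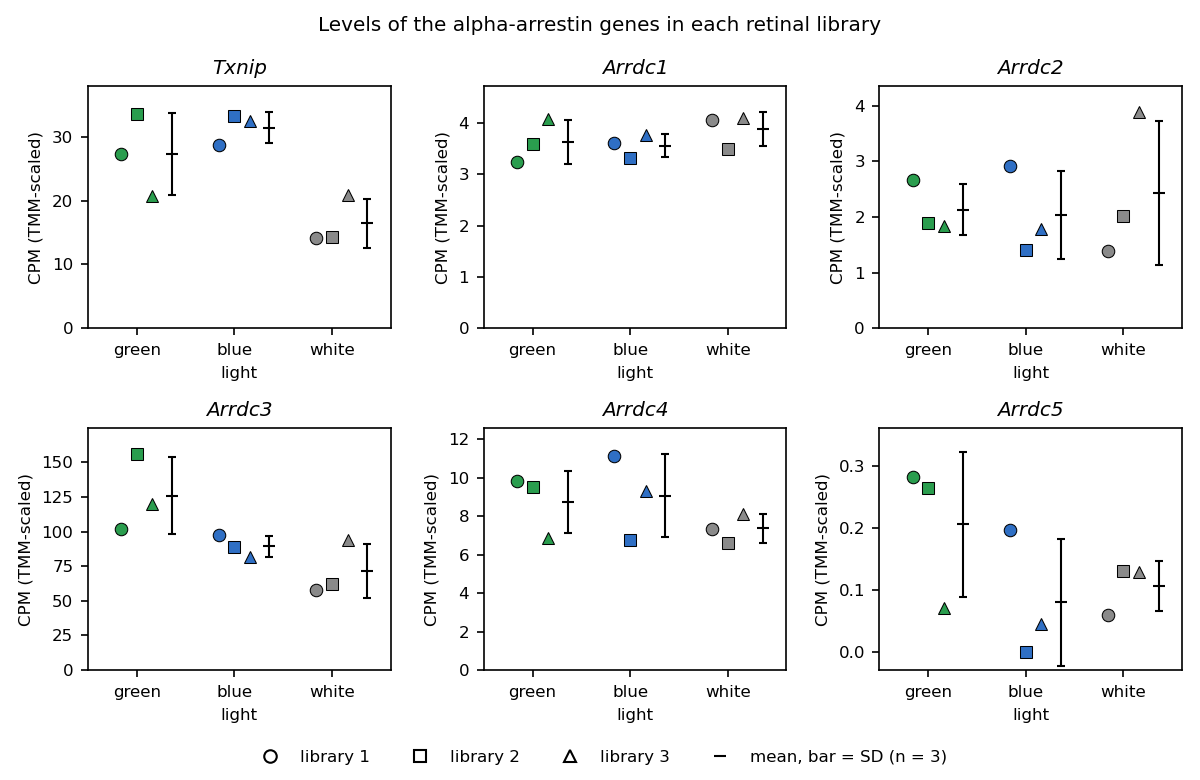
CPM of the 6 alpha-arrestin genes (vertical axes, TMM-scaled, each panel with its own range) under green, blue and white light; symbols are libraries 1 to 3 and the black bars mean and SD of 3 libraries. The 3 blue libraries of Txnip and the 3 green libraries of Arrdc3 lie above all white ones, the values on which the family was picked, while the other 4 genes overlap between lights.

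Arrdc3 had 102, 156 and 120 CPM in the green libraries, 97.3, 89.0 and 81.9 CPM in the blue libraries, and 57.9, 62.2 and 93.6 CPM in the white libraries. All 3 green libraries were above the other 6, and white library 3, of animal R-23, lay within the range of blue. The order of the means was green at 126 ± 27.5 CPM, blue at 89.4 ± 7.71 CPM and white at 71.2 ± 19.5 CPM (SD, n = 3 each), in which blue and white overlapped. The green-minus-white log2 difference, the second value behind the choice of the family, was 0.82 ± 0.19, or 1.77-fold. Blue differed from white by 0.33 ± 0.19 (edgeR adjusted p = 1; unadjusted p = 0.108), and that difference was 0.19 without white library 1 and 0.562 without white library 3. It uses the white libraries of the value that chose Arrdc3, so it is not an independent comparison.

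Green was above blue by 0.49 ± 0.19 on the log2 scale for Arrdc3, a 1.41-fold difference without overlap between the libraries that did not pass (edgeR adjusted p = 0.654; unadjusted p = 0.0231; DESeq2 adjusted p = 0.32). The green libraries are those on which Arrdc3 was chosen, so this comparison is not an independent one. Green library 2 carried the highest level of Arrdc3, and without it the difference was 0.311. Within green, Arrdc3 differed more between the 2 libraries labelled as animal 11 than between the labels 11 and 16. The 2 libraries, both titled as the right eye and library 1 with the "-B" suffix, stood 1.53-fold apart. Their mean and animal 16 lay 1.05-fold apart. In white the distance was 1.07-fold between both eyes of animal 6 and 1.56-fold to animal R-23, whose library also has the suffix.

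The ratio of Arrdc3 to Txnip within a library does not depend on the scaling between libraries. It was 3.71, 4.64 and 5.76 counts of Arrdc3 per count of Txnip in the green libraries, 3.39, 2.68 and 2.52 in the blue ones and 4.1, 4.34 and 4.48 in the white ones. The blue ratios were below all others, and the white ones, although animal R-23 had more of both genes than animal 6, lay within a narrow range inside that of green. Since Txnip was chosen for blue and Arrdc3 for green, this separation follows in part from the choice and carries no test.

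**Figure D2:**
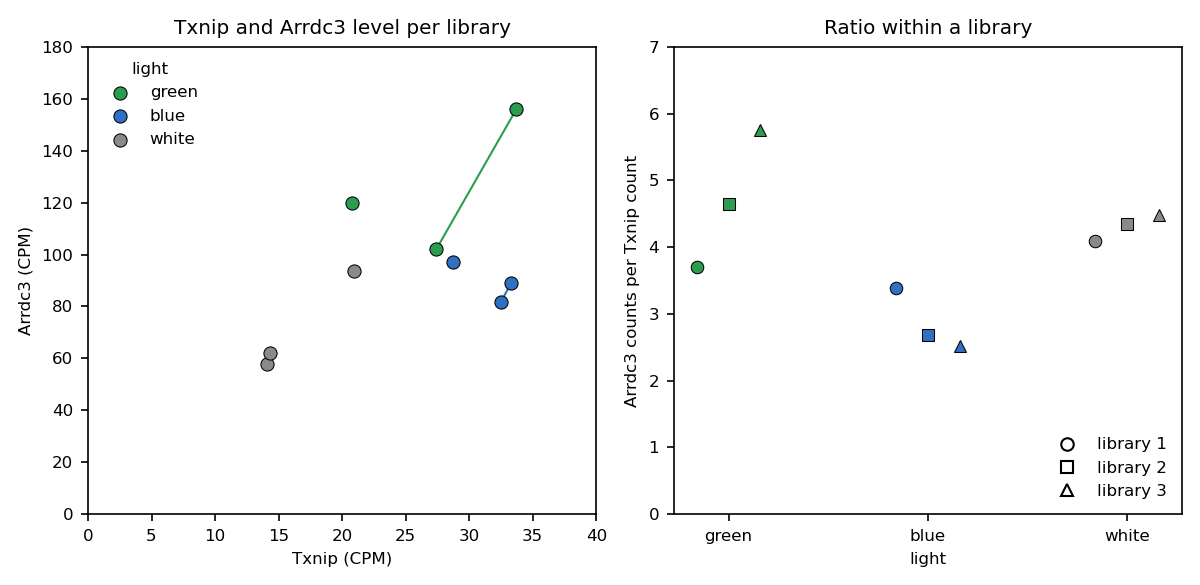
Left, Arrdc3 against Txnip, both in CPM, with 1 point per library and lines joining libraries of 1 animal label; right, counts of Arrdc3 per count of Txnip in each library. White libraries 1 and 2 sit at the lower left, blue libraries at high Txnip and middle Arrdc3, and the blue ratios of 2.52 to 3.39 lie below the green and white ones.

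Arrdc4, the other alpha-arrestin known to respond to glucose, had 9.8, 9.52 and 6.88 CPM in the green libraries, 11.1, 6.78 and 9.3 CPM in the blue libraries and 7.34, 6.62 and 8.11 CPM in the white libraries. The 3 lights overlapped, with green library 3 and blue library 2 inside the range of white. Its log2 difference from white was 0.25 ± 0.20 in green (edgeR adjusted p = 0.961) and 0.30 ± 0.20 in blue (edgeR adjusted p = 1), and without blue library 1 that of blue was 0.129. Green and blue differed by -0.05 ± 0.20.

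Arrdc1 varied least of the 6 members, between 3.23 and 4.1 CPM over the 9 libraries. It averaged 3.63 ± 0.426 CPM in green, 3.56 ± 0.227 CPM in blue and 3.88 ± 0.336 CPM in white, with log2 differences from white of -0.10 ± 0.17 in green (edgeR adjusted p = 0.983) and -0.13 ± 0.17 in blue (edgeR adjusted p = 1). Its variation over the 9 libraries, a CV of 8.92%, compares with 31.1% for each of Txnip and Arrdc3. Its counts lay between 230 and 286 per library.

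Arrdc2, a less studied member, had 2.67, 1.9 and 1.83 CPM under green, 2.92, 1.4 and 1.79 CPM under blue and 1.39, 2.01 and 3.89 CPM under white light. Libraries spread more within a light than between lights, and white library 3, of animal R-23, was the highest of all 9. The log2 difference from white was -0.18 ± 0.39 in green and -0.25 ± 0.39 in blue (edgeR adjusted p = 0.987 and 1). Without white library 3 these turned to 0.322 and 0.247.

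Arrdc5, which in the mouse is known mainly from the testis and from osteoclasts, was near the limit of detection. Green libraries held 22, 17 and 5 counts of it, blue libraries 14, 0 and 3, and white libraries 4, 9 and 8. The 0 in blue library 2 allows a level of up to 0.0407 CPM (3 counts), or 0.163 CPM if 1 fragment was entered as 4 counts, limits that cover counting error only. Arrdc5 passed the filter on low counts through green libraries 1 and 2 and blue library 1. Its log2 difference was 0.95 ± 1.01 between green and white and -0.39 ± 1.07 between blue and white, neither past the threshold (edgeR adjusted p = 0.977 and 1), and no difference was detectable at this depth. The blue difference was -2.21 without blue library 1 and 0.188 without blue library 2.

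Counted over the 4 members whose values did not choose the family (Arrdc1, Arrdc2, Arrdc4 and Arrdc5), 0 passed an adjusted p of 0.05 in edgeR in each comparison, against 0.00646% of all genes tested in green against white, 0.00646% in blue against white and 0% in green against blue. At an unadjusted p under 0.05 stood 0 of the 4 in each comparison, where 5.81%, 4.45% and 7.18% of all genes did. Libraries failed to overlap for 0 of the 4 in each, where they did so for 10.1%, 9.9% and 14.2% of all genes. Txnip and Arrdc3, whose libraries entered the choice, did not pass an adjusted p of 0.05 in the comparisons tested for them either, and only Txnip in green against white and Arrdc3 in green against blue had an unadjusted p under 0.05. DESeq2 called 0 of the 5 members that it gave an adjusted p in each comparison, where it called 0.139%, 0.162% and 0.309% of its genes. Left out of these 5 were Arrdc3 in green against white and Txnip in blue against white, as chosen values, and Arrdc5 in green against blue, for which DESeq2 gave no adjusted p. The median log2 difference of the 4 members was 0.08 in green against white, -0.19 in blue against white and 0.05 in green against blue, beside 0.009, 0.005 and -0.003 over all 15469 genes.

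The 1 gene behind each of the first 2 percentages was the same, LOC101788254, a locus outside the family, named here after its values were seen (edgeR adjusted p = 0.0143 in green and 0.0136 in blue against white). It did not pass in every smaller set of libraries: 0 genes passed between green and white without blue library 2 or blue library 3, and 0 between blue and white without green library 2 or blue library 2.

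**Figure D3:**
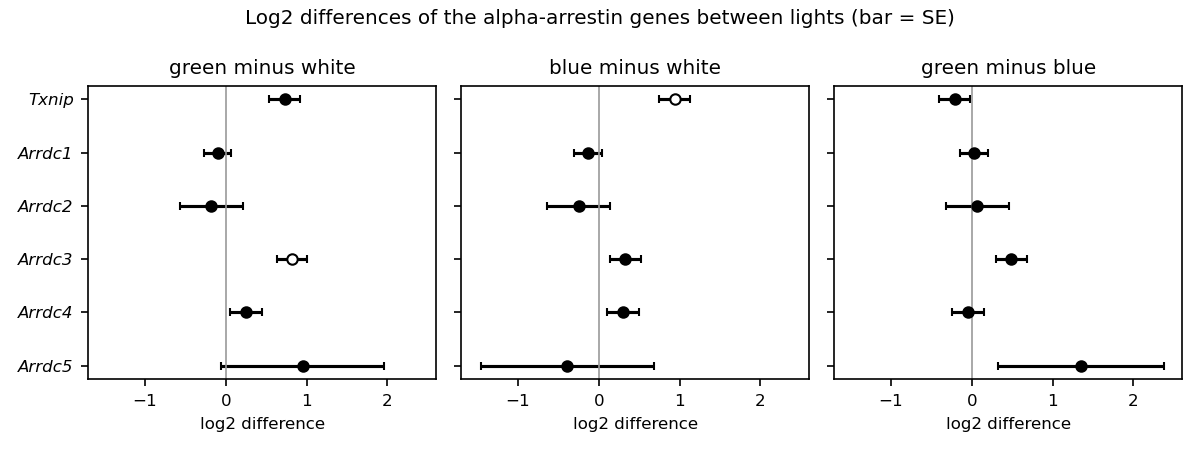
Log2 differences of the 6 genes (horizontal axes) for green and for blue relative to white and for green relative to blue, with the SE from edgeR as bars; open circles mark the 2 values on which the family was picked. Txnip lies at 0.73 and 0.94 against white, Arrdc3 at 0.82 and 0.33, and the bars of Arrdc5 span more than those of any other member.

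Levels of the members were compared over the 9 libraries as a description, since the libraries share animals and lights. Txnip and Arrdc3 gave Pearson's r = 0.67 (Spearman's rho = 0.48), and r = 0.68 after the mean of each light was subtracted. White library 3 and green library 2 were high, and white libraries 1 and 2 low, within their own light for both genes. For Txnip and Arrdc4, r was 0.58 (rho = 0.42), and 0.39 within lights. Txnip and Arrdc1 had r = -0.46, and -0.16 within lights.

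Of 11911 other genes with a symbol and a mean of at least 1 CPM, 16 had an r above 0.9 with Txnip. The 5 most alike were Camk2a (r = 0.974, rho = 0.933), which encodes the alpha subunit of calcium/calmodulin-dependent kinase II, the PDZ and LIM domain gene Pdlim4 (0.966, rho = 0.933), the cullin gene Cul4a (0.959, rho = 0.917), Myo5b (0.951, rho = 0.95), a myosin of recycling endosomes, and Lrrc38 (0.947, rho = 0.917), an auxiliary subunit of large-conductance potassium channels. Camk2a averaged 96.5 ± 8.65 CPM in green, 99.4 ± 5.11 CPM in blue and 83.1 ± 6.18 CPM in white, and Pdlim4 2.08 ± 0.953, 2.69 ± 0.544 and 0.718 ± 0.362 CPM. Since both were taken for their likeness to Txnip, their differences between lights follow in part from that choice. Within lights r was 0.953 for Camk2a, 0.947 for Lrrc38, 0.909 for Cul4a, 0.873 for Myo5b and 0.864 for Pdlim4. By that measure Camk2a and Lrrc38 were at ranks 9 and 11, and Cul4a, Myo5b and Pdlim4 at ranks 45, 100 and 115. By Spearman's rho, Myo5b was at rank 2, Camk2a and Pdlim4 at rank 4, and Cul4a and Lrrc38 at rank 8. The place of all 5 thus depends on the measure.

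With Arrdc3, 12 genes had an r above 0.9. The 5 most alike were Tmem263 (r = 0.954, rho = 0.983), the matrilin gene Matn2 (0.938, rho = 0.85), Cacna1f (0.926, rho = 0.9), the calcium channel of photoreceptor synapses, Slc35g1 (0.918, rho = 0.933), and Ggcx (0.915, rho = 0.733), the vitamin K-dependent carboxylase. Cacna1f averaged 719 ± 58.9 CPM in green, 575 ± 23.7 CPM in blue and 558 ± 43.9 CPM in white, differences that follow in part from its choice by likeness to Arrdc3. Within lights r was 0.959 for Matn2, 0.903 for Ggcx, 0.901 for Cacna1f, 0.877 for Tmem263 and 0.832 for Slc35g1, at ranks 5, 47, 50, 87 and 161. By Spearman's rho, Matn2 was at rank 71, Ggcx at 306, Cacna1f at 15, Tmem263 at 1 and Slc35g1 at 6. The place of all 5 therefore depends on the measure. The lists of 5 share no gene.

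Beside the family, 9 lists of genes that work with alpha-arrestins held 108 genes, of which 99 were tested. In edgeR 0 of the 99 passed in each comparison (smallest adjusted p 0.475 in green against white, 0.991 in blue against white and 0.518 in green against blue). At an unadjusted p under 0.05 stood 6.06% of them in green against white, 4.04% in blue against white and 10.1% in green against blue, beside the 5.81%, 4.45% and 7.18% of all genes given above. Of all genes, 52.4% had a higher level in green than in white, 51.5% in blue than in white and 49.4% in green than in blue, and the counts of directions below stand beside these shares and the medians near 0 given above. DESeq2 called 1 of them in green against white (Ddit4), 0 in blue against white and 1 in green against blue (Mlxip).

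Among the 13 genes of the MondoA and ChREBP list, 11 had a higher and 2 a lower level in green than in white, with 2 at an unadjusted p under 0.05. In blue against white 4 had a higher and 9 a lower level (1 at an unadjusted p under 0.05), and in green against blue 9 and 4 (3 at an unadjusted p under 0.05). The median log2 differences of the list were small, 0.06 in green against white, -0.06 in blue against white and 0.06 in green against blue. Mlxip, which encodes MondoA, had 58.7, 66.5 and 63.9 CPM under green, 47.6, 50.2 and 46.2 CPM under blue and 50.6, 52.0 and 59.2 CPM under white light. Blue was thus lowest for Mlxip, without overlap with either other light, while it was highest on average for Txnip. The green-minus-blue log2 difference was 0.39 ± 0.09 (edgeR adjusted p = 0.518; DESeq2 adjusted p = 0.0411).

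Pklr, a pyruvate kinase gene that ChREBP regulates in liver, had the same order, with 39.2 ± 0.40 CPM in green, 30.3 ± 1.65 CPM in blue and 34.8 ± 3.03 CPM in white, and no pair of lights overlapped. Taken 1 pair at a time, 10.1% (green, white), 9.9% (blue, white) and 14.2% (green, blue) of all genes did not overlap. Pklr was named for a small p in blue against white in these same libraries, so its separation follows in part from that choice. Its log2 difference was 0.37 ± 0.09 in green against blue (edgeR adjusted p = 0.53). The transcriptional repressor gene Bhlhe40 lay at 63.5 ± 9.91 CPM in green, 43.9 ± 7.86 CPM in blue and 50.5 ± 5.37 CPM in white. Mlx differed from white by -0.17 ± 0.11 in green and -0.13 ± 0.11 in blue, and Mlxipl by 0.27 ± 0.23 and -0.05 ± 0.23 on the log2 scale.

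**Figure D4:**
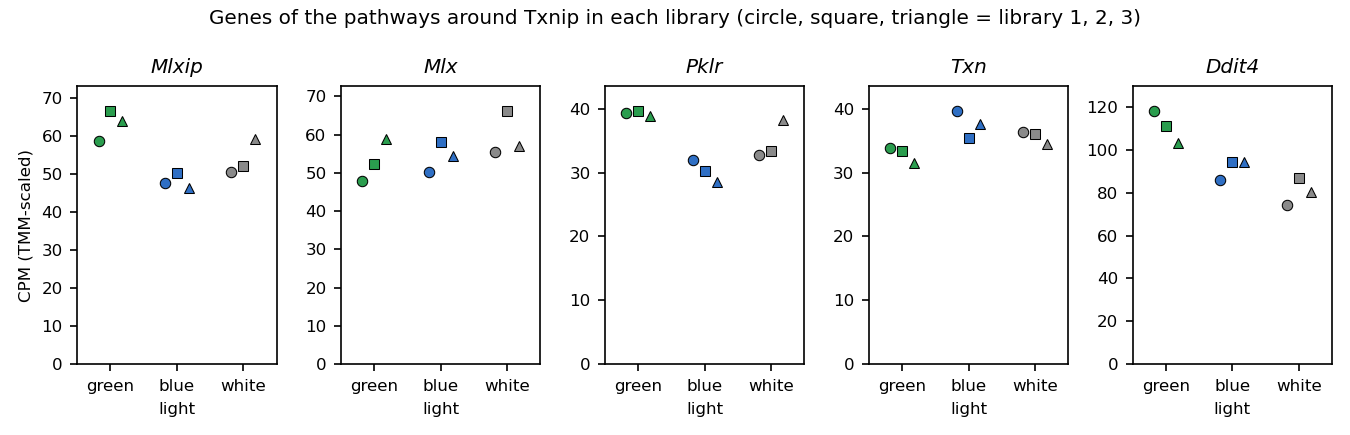
CPM of Mlxip, Mlx, Pklr, Txn and Ddit4 (vertical axes from 0, TMM-scaled) in each green, blue and white library, with circle, square and triangle for libraries 1, 2 and 3. Mlxip and Pklr are lowest in the 3 blue libraries, and Ddit4 is highest in the 3 green ones.

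In the thioredoxin list, 17 of 18 genes were tested. In green 4 were above and 13 below white, with a median log2 difference of -0.11 and 2 at an unadjusted p under 0.05, Txndc17 and Msrb1. In blue 9 were above and 8 below white (median 0.01), and in green against blue 3 were above and 14 below (median -0.14, with 3 at an unadjusted p under 0.05). Txn, the cytosolic thioredoxin that Txnip binds, had 33.8, 33.3 and 31.5 CPM under green, 39.6, 35.4 and 37.6 CPM under blue and 36.3, 36.1 and 34.5 CPM under white light. Green was below both other lights without overlap, by 0.12 ± 0.08 against white and by 0.19 ± 0.08 against blue on the log2 scale, and neither difference passed (edgeR adjusted p = 0.946 and 0.686). Msrb2, a mitochondrial methionine sulfoxide reductase, averaged 21.8 ± 2.03 CPM under blue light, against 17.7 ± 1.84 CPM under white.

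Of the 24 genes of the glucocorticoid and FoxO list, which covers signals that raise Txnip or other alpha-arrestins in several tissues, 15 were higher and 9 lower in green than in white, 14 and 10 in blue than in white, and 14 and 10 in green than in blue. The median log2 differences were 0.04, 0.01 and 0.03 in the same order. Ddit4, an inhibitor of mTOR signalling, had 118, 111 and 103 CPM under green, 86.0, 94.2 and 94.4 CPM under blue and 74.3, 86.7 and 80.5 CPM under white light. All green libraries were above the rest. Green libraries failed to overlap white for 10.1% and blue for 14.2% of all genes, in either direction. Ddit4 was named for a small p in green against white in these same libraries, so its separation follows in part from that choice. The log2 difference between green and white was 0.46 ± 0.09 (edgeR adjusted p = 0.475; DESeq2 adjusted p = 0.00734). Sesn1, a stress-induced regulator of mTOR signalling, stood at 63.3 ± 0.514 CPM in blue against 54.0 ± 2.10 CPM in white (log2 difference 0.23 ± 0.08, edgeR adjusted p = 0.991), and its green mean was 55.5 ± 3.98 CPM. Pik3ip1, an inhibitor of PI3-kinase, averaged 54.5 ± 2.74 CPM under blue light and 48.3 ± 2.23 CPM under white, and Errfi1, a feedback inhibitor of the EGF receptor, 38.7 ± 2.98 CPM under green light and 46.3 ± 4.42 CPM under white.

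The 9 ligases of the NEDD4 family had medians of 0.07, 0.01 and 0.06 in green against white, blue against white and green against blue, with 0 at an unadjusted p under 0.05 in each. Itch, a ligase of Txnip, averaged 49.2 ± 10.5 CPM in green, 43.3 ± 5.58 CPM in blue and 44.0 ± 8.04 CPM in white. For Wwp1 the log2 difference from white was 0.06 ± 0.18 in green and 0.01 ± 0.18 in blue. Nedd4 averaged 0.975 ± 0.148, 0.903 ± 0.0887 and 1.02 ± 0.203 CPM. The 8 adaptor and sorting genes had medians of -0.04, -0.08 and -0.01. The 3 classical arrestins tested (Sag, Arrb1 and Arrb2) had medians of 0.01, -0.01 and -0.08, with the visual arrestin Sag at 14300 ± 2520 CPM in green, 16100 ± 1520 CPM in blue and 13700 ± 816 CPM in white.

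Of 8 glucose transporter genes 6 were tested. Slc2a1, whose product Txnip removes from the membrane, had 881, 805 and 700 CPM under green, 682, 629 and 576 CPM under blue and 536, 619 and 805 CPM under white light. White library 3 was again the highest of its light. The log2 difference was 0.28 ± 0.14 in green against white (edgeR adjusted p = 0.854) and -0.06 ± 0.14 in blue against white (edgeR adjusted p = 1). In green against blue it was 0.34 ± 0.14 without overlap (edgeR adjusted p = 0.662). The list had medians of -0.01, -0.12 and 0.08 in the 3 comparisons.

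Of 10 inflammasome genes, which Txnip is reported to engage through Nlrp3, 6 were tested. Nlrp1 was filtered out for low counts, and the symbols of the other 3 did not match the table. Il1b averaged 0.102 ± 0.116 CPM in green, 0.114 ± 0.151 CPM in blue and 0.199 ± 0.0605 CPM in white. Il18 stood at 0.86 ± 0.233, 0.839 ± 0.221 and 0.471 ± 0.25 CPM, with overlap between all lights. The list had medians of 0.02, 0.23 and -0.13. The 13 tested genes among the cargo and partners of alpha-arrestins had medians of 0, -0.04 and -0.01, with Itgb4 at 70.2 ± 9.47 CPM in green, 61.2 ± 2.17 CPM in blue and 66.7 ± 2.16 CPM in white, and Adrb1 at 0.914 ± 0.228, 0.981 ± 0.41 and 1.36 ± 0.449 CPM.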

How the data were processed

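Retinal RNA, extracted with Trizol and sequenced as paired-end libraries on an Illumina HiSeq instrument per the labels' protocols, was deposited as 1 table. The authors deposited whole-number counts for 19962 genes in 9 libraries, per the file headers; the sources used here give no aligner, counter, strand setting, build or annotation. Low values cluster at multiples of 4 (2014 values equal 4 and 472 equal 3), so a unit may not be 1 fragment. Libraries were numbered in deposition order, and these numbers pair nothing.

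Counts of all 9 libraries were fitted in edgeR 4.0.16 (R 4.3.3) with light as the only term, after filterByExpr (minimum count 10, minimum total 15; 15469 genes kept, all 6 members among them) and TMM scaling. Quasi-likelihood F tests gave the 3 contrasts, with Benjamini-Hochberg adjustment over all genes and a threshold of 0.05. The SE of a log2 difference is its size over the root of F. DESeq2 1.42.0 was an alternative. Likeness used log2 CPM with a prior count of 2. The fit was tested on simulated counts in which 200 of 15469 genes had a 2-fold change between green and white. It recovered 158 of these at the threshold, with 14 false calls. Simulated libraries were drawn independently, whereas the real ones share animals, so the p-values were not tested for that sharing.

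Named are all members, in each list the 2 genes of smallest p in green and in blue against white (a selection of them is printed), 9 fixed genes, and the 5 genes most like Txnip and Arrdc3. Members and lists were chosen with earlier results of these data known. Symbols were used as deposited; all 6 members matched the names table of mCavPor4.1, as did 18339 identifiers in all. Some markers are not reported here.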

Additional observations from a re-analysis of the deposited data

Results flagged for a closer look

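For 2 of the 33 genes named from the lists, every green library lay above and every blue library below the mean of white. Of all 15469 genes, 1.58% had this pattern (3.2% with the opposite arrangement included). Apart from the fixed genes, the 33 were named for a small p in green or in blue against white in these same libraries. Their share therefore cannot be weighed against that of all genes. Both belong to the MondoA and ChREBP list. They were Mlxip, with a green-minus-blue log2 difference of 0.39, and Pklr, with 0.37. Neither difference passed in edgeR (adjusted p = 0.518 and 0.53). No member of the alpha-arrestin family showed this pattern. Groups of 3 libraries were not searched for single outlying libraries here, and fits that left out 1 library are given below for the members.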

How the results depend on the processing

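Of the 18 alternatives, 9 left out a library each. No member passed an adjusted p of 0.05 under any of them in the comparisons tested; the smallest adjusted p was 0.063, for Txnip between green and white in DESeq2. The differences of Txnip and Arrdc3 kept their signs throughout. Txnip between green and white ran from 0.545 to 0.933, and Arrdc3 between green and blue from 0.311 to 0.631. The largest shift against the spread was in Arrdc3 between green and white, 1.192 without both libraries whose title ends in "-B" (0.823 with them). These are green library 1, the lowest of green for Arrdc3 (102 CPM), and white library 3, the highest of white (93.6 CPM). Without them white held libraries of animal 6 only. Why the 2 libraries differ from the rest of their light was not tested.

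Signs turned for small differences. Without the "-B" libraries, Arrdc1 between green and white was 0.016, and Arrdc2 was 0.127 in green and 0.247 in blue against white and -0.12 in green against blue. With a covariate for pigment epithelium genes (their mean log2 level), Arrdc1 between green and blue was -0.069 and Arrdc4 0.056. With counts summed per animal label, Arrdc2 between green and blue was -0.104. Leaving out 1 library gave, between green and blue, -0.057 to 0.113 for Arrdc1, -0.142 to 0.422 for Arrdc2 and -0.225 to 0.12 for Arrdc4. It gave -0.468 to 0.322 for Arrdc2 between green and white, and between blue and white -0.606 to 0.247 for Arrdc2 and -2.21 to 0.188 for Arrdc5. Arrdc5 was filtered out against white in the fits of 6 libraries, and in every comparison in the fit of counts divided by 4.

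The count of all genes past the threshold, 1, 1 and 0 in green against white, blue against white and green against blue, was 24, 28 and 43 in DESeq2, 0, 0 and 1 in fits of the 6 libraries compared, and 10 and 12 against white without the "-B" libraries. It was 0 in both comparisons with white for counts divided by 4, and 0 between green and white with the pigment epithelium covariate. When 1 library was left out it was 0 to 6, 0 to 7 and 0 to 4. The highest came without white library 3, white library 3 and green library 2. Without white library 3, as without the "-B" libraries, white held libraries of animal 6 only. No analysis paired between lights was possible because each animal label occurs under 1 light only, and the library numbers are only the deposition order.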
